A study of Homo sapiens with 6 samples.

Results

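Arrays of abutting domains are stretches of chromatin in which topologically associating domains follow each other without a gap, the end of each domain being the start of the next. Those of HCT116, an established line of human colorectal cancer cells, were chosen by the coordinates of the deposited HCT116 domain list: on chromosomes 1 to 22, and without entries longer than 2 Mb, chains of 3 or more abutting domains were taken. This gave 505 arrays, which held 2180 of the 4069 domains that met these limits, out of 4289 domains in the whole list. The rest were 872 domains in 436 chains of 2 (pairs below) and 1017 single domains with no abutting neighbour, which served for comparison.

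The study measured chromatin contacts by Hi-C, in which cross-linked DNA ends that lie close together are joined and sequenced, in 2 groups of 3 libraries each. The first group was HCT116, labelled WT. The second was DKO1, a derivative of the same line in which DNMT1 and DNMT3B had been knocked out; both were grown in McCoy's 5A medium with foetal bovine serum. DKO1 is 1 derived line, so the knockouts cannot be told apart from any other difference between the lines. The labels of a line's 3 replicates point to identical deposited files, taken as pooled, so that each line has 1 list of domains and 1 compartment track, with no replicate error and no test between the lines. The depth of the maps is unknown.

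Topologically associating domains are regions whose DNA contacts itself more than its surroundings. In mammals many of their boundaries are held by the DNA-binding protein CTCF and the ring-shaped complex cohesin, which extrudes loops of chromatin. At a larger scale, chromatin divides into an open, gene-rich A compartment and a closed, gene-poor B compartment, read here from the sign of PC1, the first principal component of the contact map. DNMT1 copies DNA methylation to the new strand after replication, and DNMT3B adds it to unmethylated sites. Binding of CTCF to some of its sites is known to be sensitive to methylation. Where domains abut, 1 boundary serves both neighbours, as the end of the first and the start of the second; where they do not, each domain has boundaries of its own.

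Most arrays of HCT116 were short, with a tail of long ones. The median array held 4 domains (quartiles 3 and 5, at most 16) and spanned 1080 kb (quartiles 880 and 1440, from 480 to 4520). There were 225 arrays of 3 domains, 131 of 4 and 149 of 5 or more, of which 15 had 10 or more. Together the arrays spanned 629.32 Mb and held 23.6% of the autosomal bins of the compartment track. Their domains were of the same size as the others: the median length was 280 kb in arrays, in pairs and among single domains, with an upper quartile of 320 kb in arrays and 360 kb in both other classes. These values describe the choice of the arrays and were not tested.

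**Figure D1:**
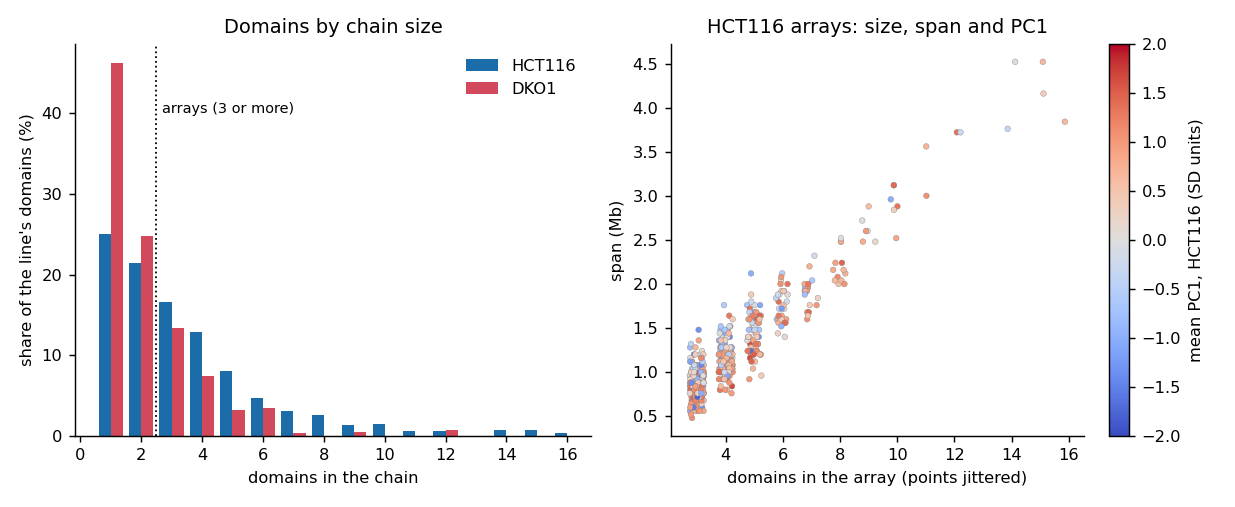
Left, share of each line's domains (%) by the number of domains in their chain, for HCT116 and DKO1, with the limit for arrays as a dotted line. Right, each HCT116 array as a point, by its number of domains, its span in Mb and its mean PC1 in HCT116 in SD units (colour); in HCT116 53.6% of domains lie in arrays and in DKO1 29.0%, and the longest arrays reach 4.52 Mb.

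Outside the arrays the domain list had gaps. Where a gap followed, an outer end of an array lay a median of 280 kb (quartiles 160 and 640) from the next domain, and the end of a single domain 440 kb (200 and 1080). Of the 1010 outer ends 118 (11.7%) lay inside another HCT116 domain. Chromosomes differed in how much of their domain list was arrayed. The share of domains in arrays was 79.8% on chromosome 22, 76.1% on chromosome 19 and 70.7% on chromosome 21, and it was lowest on chromosomes 18 (35.0%), 8 (39.1%) and 13 (41.7%). Per 100 Mb of bins there were 46.8 arrays on chromosome 22 and 37.6 on chromosome 19, but 10.6 on chromosome 8 and 10.7 on chromosome 4.

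Arrays lay mostly in compartment A, as pairs and single domains also did. Domains in arrays had a median HCT116 PC1 of 0.76, in units of the SD within a chromosome, against 0.48 for domains in pairs and 0.33 for single domains. Of the array domains 73.4% had a positive PC1, of the domains in pairs 63.3% and of the single domains 60.6%. No such share was computed over all domains, of which array domains are 53.6%. Arrays held 30.9% of the A bins of the autosomes and 15.1% of the B bins. Per 100 Mb there were 111.9 array domains in A and 47.1 in B, while single domains numbered 42.7 and 32.2. The share of HCT116 domains that lay in arrays was 63.0% (Wilson 95% interval 60.2 to 65.8) at a PC1 of 1 and above, 57.6% between 0.5 and 1, and 47.9%, 41.6% and 46.0% in the classes from 0 to 0.5, from -0.5 to 0 and below -0.5. The PC1 and the domains come from the same HCT116 map and are not independent measurements. These and all later Wilson intervals cover counting error only, and take neighbouring domains as independent.

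A single array could run through both compartments. In 269 arrays every domain had a positive PC1, in 53 every domain had a PC1 of 0 or below, and 183 held domains of both signs. The range of domain PC1 within an array had a median of 0.66 and reached 3.53. The step between the neighbours of an inner boundary was small in most cases, with a median of 0.21 (quartiles 0.09 and 0.51). Of the 1674 inner boundaries with PC1 on both sides, 250 separated a domain of A from a domain of B. The PC1 within 40 kb of an inner boundary differed from the mean of its neighbouring domains by a median of -0.01 (quartiles -0.09 and 0.10).

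The boundaries inside arrays were listed in DKO1 more often than any other class. A boundary was called found where a start or end of a DKO1 domain lay within 40 kb. Of the 1675 inner boundaries of arrays 70.7% were found (68.5 to 72.9), against 46.3% (43.3 to 49.4) of the 1010 outer ends of arrays and 27.0% (25.1 to 29.0) of the 2034 ends of single domains. Over all 6027 HCT116 boundaries of chromosomes 1 to 22 the share was 45.0%, and over all 40 kb positions of these chromosomes 12.7%. The outer ends of arrays were thus near the level of all boundaries. Inner boundaries exceeded single ends by 43.8 percentage points (40.8 to 46.6, counting error only). They had the higher share on 22 of 22 chromosomes, from 43.6% against 31.0% on chromosome 4 to 84.8% against 5.56% on chromosome 21, where 9 single domains were listed. Outer ends exceeded single ends on 18 of 22 chromosomes, and the exceptions were chromosomes 10, 13, 16 and 17.

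An inner boundary is both an end and a start, so either kind of DKO1 end can lead to a find. Counting a start as found only by a DKO1 start and an end only by a DKO1 end, an alternative added after the values were seen, 49.3% (47.6 to 51.0) of the 3350 domain ends at inner boundaries were found, 44.0% (40.9 to 47.0) of the outer ends and 25.4% (23.6 to 27.4) of the single ends. By this count the inner and outer ends of arrays were much closer to each other, with the inner ends higher on 19 of 22 chromosomes, and both were above the single ends, the inner ends on 21 and the outer ends on 20 of 22 chromosomes. Each inner boundary enters counts of this kind as an end and as a start, which their intervals take as independent. Of the 1185 inner boundaries found, 39.3% had both a DKO1 end and a DKO1 start within 40 kb, 30.1% a start only and 30.5% an end only. At 77.7% of them the DKO1 boundary was at the same position.

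**Figure D2:**
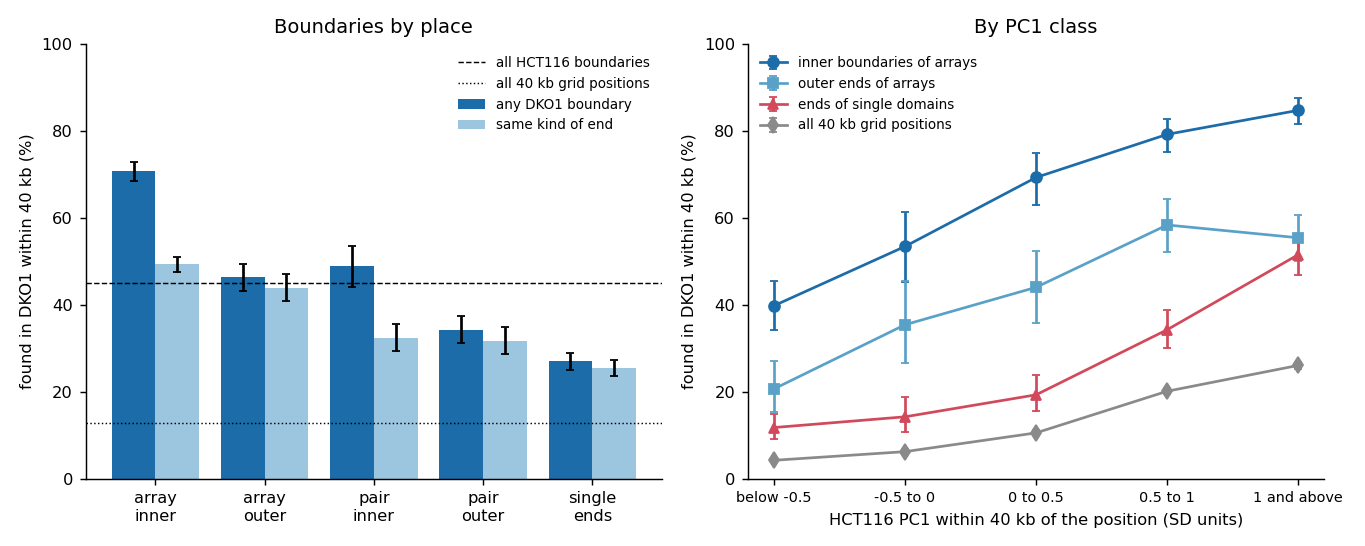
Left, share (%) of boundaries found in DKO1 within 40 kb, by place, counted by any DKO1 boundary (dark) or by the same kind of end (light), with Wilson 95% intervals and lines for all HCT116 boundaries and all 40 kb grid positions. Right, the share found by any DKO1 boundary, by class of HCT116 PC1 around the position (SD units); inner boundaries of arrays are the highest in all 5 classes, from 39.8% to 84.7%.

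Boundaries that were not found were seldom swallowed by a larger DKO1 domain, whether inner boundaries, outer ends or single ends. Of all 1675 inner boundaries, found or not, 21 lay inside a DKO1 domain at more than 40 kb from its ends. So did 43 of the 1010 outer ends and 50 of the 2034 single ends, and no share over all boundaries was computed. These totals include the 1185, 468 and 549 that were found, so the counts do not rank the 3 classes. Most boundaries not found thus lay outside DKO1 domains.

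Boundaries of compartment A were found more often in each class. At a PC1 of 1 and above, 84.7% (81.5 to 87.5) of 557 inner boundaries were found, against 55.4% (50.04 to 60.7) of outer ends and 51.5% (46.8 to 56.2) of single ends; all grid positions of this class gave 26.1%. Below -0.5 the shares were 39.8% (34.3 to 45.6) of 284 inner boundaries, 20.7% of outer ends, 11.8% of single ends and 4.23% of grid positions. The excess of inner boundaries over single ends was 33.2 percentage points in the highest class, 50 between 0 and 0.5, and 28.0 in the lowest. With single domains weighted to the PC1 classes of the arrays, 32.4% of their ends were found. By the same kind of end the classes lay closer together. At a PC1 of 1 and above 60.1% (57.2 to 63.0) of inner, 52.4% (47.0 to 57.7) of outer and 48.7% (44.0 to 53.4) of single ends were found, and between 0 and 0.5 these were 46.5%, 43.3% and 18.7%. Between -0.5 and 0 the outer ends (33.3%) were above the inner ones (31.5%), with overlapping intervals, and single ends gave 13.2%. Below -0.5 the shares were 23.4%, 20.1% and 10.504%.

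Shares were higher in longer chains. The inner boundaries of pairs, just outside the limit for arrays, were found in 48.9% of cases (44.2 to 53.5) and those of arrays of 3 domains, just inside it, in 64.9% (60.4 to 69.2). The share was 67.4% for 4 domains, 71.9% for 5, 75.4% for 6 to 7, 80.6% for 8 to 9 and 77.0% (69.98 to 82.7) for 10 to 16. The median HCT116 PC1 at inner boundaries also differed, with 0.45 in pairs, 0.64 in arrays of 3, 0.80 in arrays of 8 to 9 and 0.73 in arrays of 10 to 16, and its part in the order was not tested. Among inner boundaries, distance from the end of the array made little difference. In arrays of 5 or more domains 74.8% (69.6 to 79.4) of the inner boundaries next to an end and 75.8% (72.0 to 79.3) of those further in were found, against 51.7% (46.0 to 57.3) of the outer ends. These shares count any DKO1 end. By the same kind of end, inner and outer shares were 49.3% and 44.0% over all arrays, and 32.5% and 31.8% in pairs.

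Whole domains followed the same order, but a match needs both ends near their place, so that this is the same measurement in another form. A domain was called matched where it and a DKO1 domain overlapped by at least 80% of each. Over all 4069 domains 35.7% were matched. In arrays 968 of 2180 were (44.4%, 42.3 to 46.5), in pairs 29.6%, and among single domains 227 of 1017 (22.3%, 19.9 to 24.98). The difference between array and single domains was 22.1 percentage points (18.7 to 25.3), and array domains had the higher share on 20 of 22 chromosomes. The exceptions were chromosome 13, with 20.9% against 23.3%, and chromosome 17, with 46.8% against 51.7%. Of the array domains 47.2% were covered by DKO1 domains over less than 20% of their length, and of the single domains 70.1%.

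**Figure D3:**
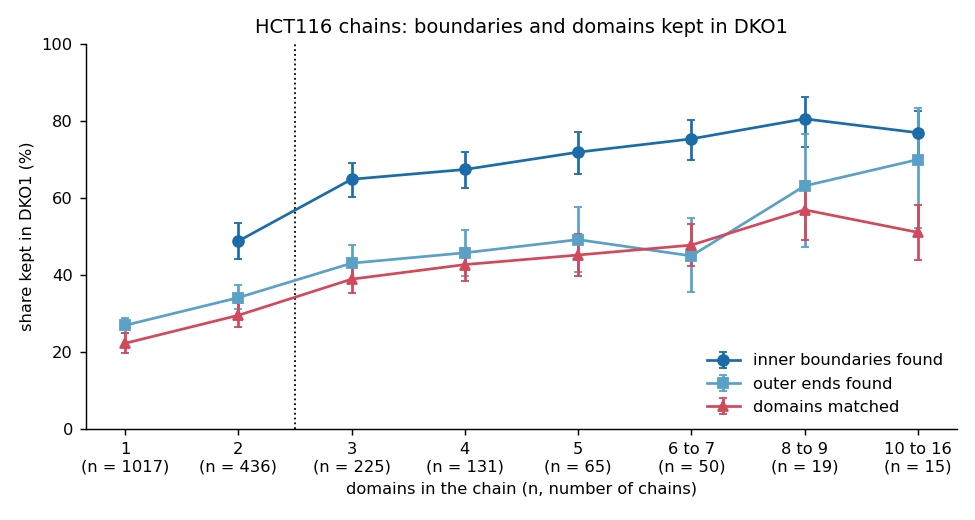
Share (%) of inner boundaries found, outer ends found and domains matched in DKO1, by the number of domains in the HCT116 chain, with Wilson 95% intervals; the dotted line marks the limit for arrays. Domains were matched in 22.3% of cases when single, 39.0% in arrays of 3 and 51.1% in arrays of 10 to 16.

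The matched share of array domains went with PC1. It was 53.5% at a PC1 of 1 and above, 55.8% between 0.5 and 1, 42.0% between 0 and 0.5, 31.4% between -0.5 and 0, and 18.8% below -0.5. Single domains gave 43.4%, 29.8%, 14.6%, 8.53% and 10.1% in the same classes, below the arrays in all 5. The gap was widest between 0 and 0.5, at 27.4 percentage points, and was 10.04 in the highest class and 8.69 in the lowest. Among domains of up to 280 kb 47.1% of those in arrays and 23.6% of the single ones were matched, and among longer ones 40% and 20.3%. Inside arrays, 46.8% (44.0 to 49.7) of the domains between others were matched, 40.6% (36.4 to 44.9) of the first and 42.6% (38.3 to 46.9) of the last.

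Most arrays had an inner boundary found and a domain matched in DKO1, and few had every boundary found or every domain matched. In 225 of the 505 arrays (44.6%) every inner boundary was found, in 204 some were, and in 76 (15.0%) none. With both outer ends required as well, 84 arrays (16.6%) kept all their boundaries. Every domain was matched in 32 arrays (6.34%), none in 93 (18.4%), and 100 arrays (19.8%) held at least 3 matched domains in a row. Of the 149 arrays of 5 or more domains 49 had every inner boundary found and 6 had none. Abutting neighbours were both matched in 402 of 1675 cases (24.0%), 1 of them in 712 (42.5%) and neither in 561 (33.5%). Where both were matched, the DKO1 domains also abutted in 397 of 402 cases. The match rule leaves the ends of a domain of usual length little room to move, and gaps in the HCT116 list were seldom so short. Matched neighbours were thus bound to abut in most cases, and this count is not separate evidence that abutment was kept.

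The compartment of an array went with its fate also within arrays. Arrays wholly in A had 82.6% (79.9 to 84.9) of 877 inner boundaries found and 54.0% of domains matched, and 15 of these 269 had no inner boundary found. Arrays wholly in B had 32.3% (24.97 to 40.7) of 133 found and 17.7% matched, and 27 of these 53 had none found. Within the 183 arrays that held both, 77.5% (71.8 to 82.4) of the boundaries between A domains were found, 62.4% (56.3 to 68.2) of those between A and B, and 44.1% (37.1 to 51.5) of those between B domains. In 90 of these arrays the A domains had the higher matched share, in 36 the B domains, and in 57 the shares were equal.

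The PC1 of arrays was similar in both lines. Over the 505 arrays, which share their chromosome's scaling in each line, the mean PC1 of HCT116 and DKO1 had a Pearson r of 0.90 and a Spearman rho of 0.91. For single domains these were 0.88 and 0.90. The median difference, DKO1 minus HCT116, was 0.08 per array (quartiles -0.09 and 0.25), and 316 arrays were higher in DKO1 and 189 lower. Array domains had a median PC1 of 0.77 in DKO1 and 0.76 in HCT116, and single domains 0.21 and 0.33, although the median difference per single domain, DKO1 minus HCT116, was 0.04. With the median of each chromosome subtracted in place of the mean, array domains had 0.70 in DKO1 and 0.55 in HCT116, and single domains 0.25 and 0.22, so the order of the lines among single domains turned with the centring. By sign, 334 arrays were A in both lines and 106 B in both, 25 went from A to B and 40 from B to A. Among domains that were A in HCT116, 5.44% in arrays, 10.2% in pairs and 12.8% of the single ones were B in DKO1. Of the domains that were B in HCT116, 15.2% in arrays (88 of 580), 14.1% in pairs (45 of 320) and 11.3% of the single ones (45 of 397) were A in DKO1. In this direction the order was the opposite, and the classes lay closer together. No interval and no share over all domains was computed for these values, so their order is described only. Array domains had the higher median PC1 in HCT116, and its part in these shares was not tested.

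Arrays whose PC1 sign differed between the lines had fewer boundaries found than those in A in both. Those that were A in both lines had 80.6% (78.3 to 82.8) of inner boundaries found and those that went from A to B 57.7% (46.6 to 68.0), with a median HCT116 PC1 of 0.90 and 0.18. Arrays that went from B to A had 50% (42.1 to 57.9) found and those that stayed in B 47.2% (41.7 to 52.8), with a median HCT116 PC1 of -0.27 and -0.85. Among arrays with a mean PC1 of 0 or below in HCT116, 42.3% (35.8 to 49.0) were found in the 68 that were higher in DKO1 by over 0.25, and 54.6% (48.1 to 61.0) in the 71 that differed by at most 0.25. In the 7 that were lower by over 0.25, it was 33.3% of 15 boundaries. Arrays above 0 in HCT116 showed no such difference between higher (80.1%, 74.2 to 84.9) and little changed (80.3%, 77.6 to 82.9). The 54 of them that were lower by over 0.25 had 71.1% found (63.4 to 77.8). For inner boundaries with a PC1 from -0.5 to 0 the share was 53.4%, and from 0 to 0.5 it was 69.3% (63.0 to 74.9).

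**Figure D4:**
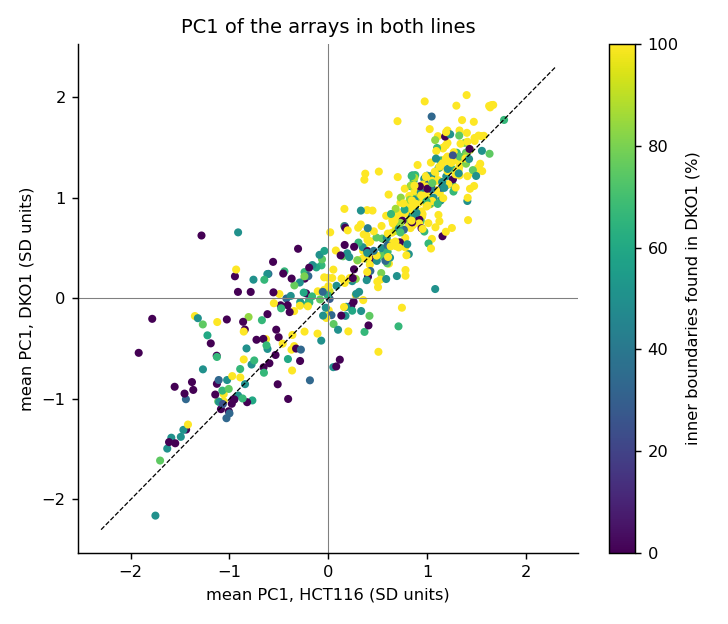
Each HCT116 array as a point, by its mean PC1 in HCT116 (x axis) and DKO1 (y axis), both in SD units, with the share of its inner boundaries found in DKO1 (%) as colour; the dashed line marks equal values. Most points lie near that line (r = 0.90), and most arrays with no inner boundary found lie at low or negative PC1.

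DKO1 itself had fewer arrays, and nearly all overlapped an array of HCT116. By the same rule its 1731 domains formed 133 arrays, which held 502 domains (29.0%, against 53.6% in HCT116), with at most 12 domains in 1 array. Their median span was 960 kb, and they had a median PC1 of 0.98 by the HCT116 track and 1.06 by that of DKO1. Of the 133 arrays 129 overlapped an HCT116 array, and 107 had at least 80% of their span within 1. From the other side, 134 of the 505 HCT116 arrays (26.5%) overlapped a DKO1 array. Of the 369 inner boundaries of DKO1 arrays 98.6% (96.9 to 99.4) were found in HCT116, where all DKO1 boundaries gave 92.6%. Of these 369, 88.1% lay within 40 kb of an inner boundary of an HCT116 array. Neither this share nor the overlap with HCT116 arrays was computed for other DKO1 domains, so no base share stands beside them. The domains of DKO1 arrays were matched in 87.8% of cases, the single DKO1 domains in 80.3%, and all DKO1 domains in 83.9%.

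The longest arrays show how these shares look along the chromosome. Coordinates are on hg19, and arrays on chromosome 8 were counted but are not named. The array with the most domains, 16, lay on chromosome 19 from 45160001 to 49000000. All of its domains were in A, and the mean PC1 over the array was 0.68 in HCT116 against 0.67 in DKO1. Of its 15 inner boundaries 14 were found, as were both outer ends, and 9 domains were matched. Some domains without a match stood between matched ones, for instance those at 45400001 to 45640000 and 45880001 to 46280000, whose neighbours on both sides were matched. From 48440001 to 48800000 DKO1 listed 1 domain of 360 kb across the 2 HCT116 domains that met at 48640000. The array of 15 domains on chromosome 9, from 129240001 to 133760000, was the best covered of the 10 longest named, with 85.0% of its length under DKO1 domains and 11 domains matched, 6 of them in a row. Averaged over the array, PC1 was higher in DKO1 (0.89) than in HCT116 (0.68).

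Long arrays that crossed compartments were kept unevenly along their length. The array of 14 domains on chromosome 5, from 145640001 to 149400000, had the widest range of domain PC1 of all, 3.53. Its last 6 domains, from 147840001 on, were all matched in DKO1 at identical positions; 5 of them had PC1 between 0.21 and 1.67 in HCT116 and the other, the first, -1.20. Of the 8 domains before them, 7 had a negative PC1 and only the one at 146600001 to 146800000 was matched. The array of 14 domains on chromosome 19, from 8760001 to 13280000, also held both signs, and averaged close to 0 in PC1 (0.01 in HCT116, 0.07 in DKO1). There 12 of 13 inner boundaries were found and 7 domains were matched. The array of 12 domains on chromosome 7, from 36520001 to 40240000, was less well kept. It averaged a PC1 of -0.28 in HCT116 against -0.04 in DKO1, and 6 of 11 inner boundaries, neither outer end and 3 domains had a counterpart in DKO1.

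Among arrays of 5 or more domains, the share of inner boundaries found ran from 100% to 0%. Every inner boundary was found in the arrays on chromosome 1 from 21280001 to 24280000 (11 domains, PC1 1.07 in HCT116) and from 201480001 to 204360000 (10 domains, PC1 1.33), and in that on chromosome 3 from 127880001 to 130760000 (9 domains, PC1 0.60). None was found, and no DKO1 domain lay in the array at all, in those on chromosome 12 from 21080001 to 23200000 (6 domains, PC1 -0.50 in HCT116 and -0.39 in DKO1), on chromosome 6 from 160280001 to 161800000 (6 domains, -0.91 and 0.06) and on chromosome 11 from 57800001 to 59560000 (5 domains, -0.73 and -0.41). Among arrays of 5 or more domains, chromosome 8 left out, the highest PC1 in HCT116 was 1.63. It was reached in the array on chromosome 4 from 3040001 to 4200000 and in that on chromosome 12 from 122800001 to 124120000. The first was covered by DKO1 domains over its whole length, with 3 of 4 inner boundaries found, and in the second all 4 were found. The lowest among arrays of this size, -1.70, belonged to that on chromosome 22 from 32920001 to 34160000, where 3 of 4 inner boundaries were found although DKO1 listed only 2 domains there. On chromosome 17, from 31080001 to 33000000, the PC1 was -1.47 and 3 of 6 were found.

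Where PC1 differed most between the lines, boundaries did not follow a single course. The array lowest in DKO1 relative to HCT116 was on chromosome 1, from 18240001 to 19440000, where the mean PC1 of 4 domains was 0.51 in HCT116 and -0.53 in DKO1. All 4 domains were matched in DKO1 and all 3 inner boundaries and both outer ends were found, although 3 of the 4 domains had a negative PC1 in DKO1, down to -1.08. On chromosome 7, from 21040001 to 22120000, the means were 0.71 and -0.28, and 2 of 3 inner boundaries and 1 of 4 domains were kept. On chromosome 12, from 112600001 to 114160000, they were 1.08 and 0.09, with 2 of 4 and 3 of 5 kept. The array highest in DKO1 relative to HCT116 was on chromosome 6, from 168520001 to 169800000, with a mean of -1.28 in HCT116 and 0.63 in DKO1. There, all 4 HCT116 domains were positive in DKO1, and none of the 3 inner boundaries was found. On the same chromosome from 51200001 to 51920000 the means were -1.78 and -0.20, with neither inner boundary found, and on chromosome 13 from 109120001 to 109800000 they were -0.91 and 0.66, with 1 of 2 found.

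**Figure D5:**
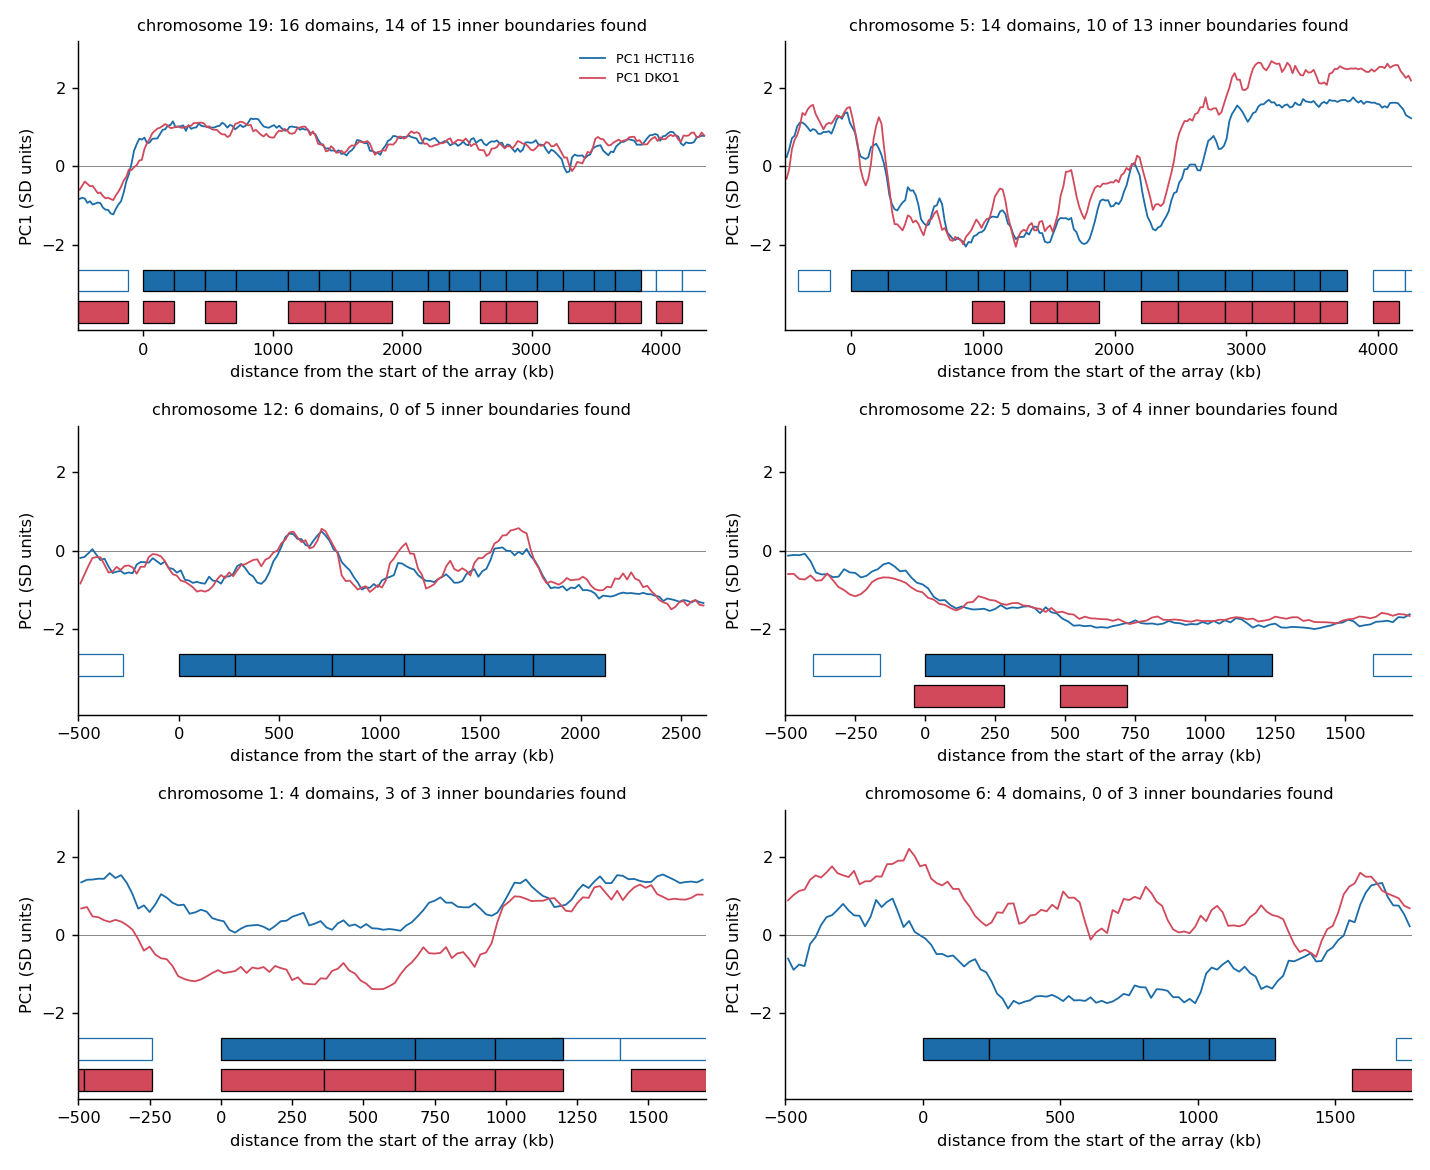
Arrays on chromosomes 19, 5, 12, 22, 1 and 6, with PC1 (SD units) of HCT116 (blue line) and DKO1 (red line) against the distance from the start of the array in kb, 500 kb on each side included. Boxes below are the domains of HCT116 (blue in the array, open outside it) and DKO1 (red); of the inner boundaries 14 of 15, 10 of 13, 0 of 5, 3 of 4, 3 of 3 and 0 of 3 are found in DKO1.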

How the data were processed

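Hi-C libraries, 3 of HCT116 and 3 of DKO1, were used through 4 deposited files, 1 domain list and 1 PC1 track per line, each taken as pooled over its replicates. HiC-Pro, HOMER 4.6 and build hg19 appear, without their roles, among the submitters' processing notes; which program called the domains is not given in the sources used here. The authors' domain lists hold positions only, in steps of 40 kb. The deposited PC1 score, given per 20 kb bin, has a mean of 0 and an SD of 1 within each chromosome.

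Domains over 2 Mb (17 in HCT116, 14 in DKO1) and chromosomes other than 1 to 22 were left out. No 2 domains of a list shared a start or an end, so chains were unambiguous. Domain PC1 is the mean over bins present in both tracks (10 single domains, 1 in a pair and 1 in an array had none), and boundary PC1 the mean within 40 kb. Shares carry Wilson 95% intervals; differences of shares combine these by Newcombe's method. No p-value was computed. The chaining and matching code was tested on simulated data, where 400 of 400 planted chains were recovered. Python 3.11.15, numpy 2.4.6, pandas 2.3.3 and matplotlib 3.10.9 were used.

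The named arrays, chromosome 8 left out, are the 10 with the most domains (ties by span, then position); among those of 5 or more domains, the 3 highest and 3 lowest in HCT116 PC1 and in the share of inner boundaries found; and the 3 largest changes of PC1 each way, with examples of each printed. The members and lists were chosen with earlier results of these data known. Genes and the sequence of boundaries were not analysed here, since the tables used are on another build.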

Additional observations from a re-analysis of the deposited data

Results flagged for a closer look

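Chromosome X was outside the arrays described, and its domains are data that no comparison above used. The same rule gives 20 arrays on X, with 90 of its 200 domains (45.0%). Of their 70 inner boundaries 60.0% were found in DKO1 (48.3 to 70.7), against 25.8% of the 132 ends of single domains on X, and 35.6% of array domains against 12.1% of single domains were matched. The boundary shares count any DKO1 end, which favours inner boundaries, and the same kind of end was not counted on X. No share over all boundaries or all domains of X was computed.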

How the results depend on the processing

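Inner boundaries of arrays were found more often than ends of single domains under all 21 alternatives, by 23.9 to 50 percentage points, and array domains were matched more often under all 22, by 8.69 to 27.4. PC1 classes counted by the same kind of end are not among these alternatives. At a PC1 of 1 and above, that count gave 60.1% of inner and 48.7% of single ends. Below -0.5 it gave 23.4% and 10.504%, and both pairs lie closer together than the range above. Between 0 and 0.5 it gave 46.5% and 18.7%. With arrays of 2 or more domains there were 941 arrays with 75.01% of domains, 66.2% of inner boundaries and 40.7% of outer ends found (39.2 points above single ends), 40.2% of domains matched (17.8 points above single domains) and a median PC1 of 0.70 in HCT116 and 0.66 in DKO1. With 4 or more there were 280 arrays with 37.0% of domains, 72.9% of inner boundaries found, 46.8% matched and a DKO1 PC1 of 0.83. With 5 or more there were 149 with 24.1%, and 75.5% of inner boundaries and 51.7% of outer ends were found (48.5 points), 49.0% of domains matched (26.7 points), and PC1 was 0.81 and 0.86. Where a gap or overlap of up to 40 kb also counted as abutting, 59.4% of domains lay in arrays, 67.2% of inner boundaries were found (40.2 points) and 42.2% of domains matched. At a tolerance of 0 kb 54.99% of inner boundaries, 34.0% of outer ends and 20.6% of single ends were found (34.4 points), and at 120 kb 51.7% of outer and 30.5% of single ends. Without chromosomes 8, 10, 16, 17 and 18, rearranged in HCT116, 25.1% of single ends were found (46.9 points). At a reciprocal overlap of 50% 50.6% of array and 28.4% of single domains were matched, at 70% 47.5% of array domains, and at 90% 28.9% and 15.2% (13.7 points). From the lowest PC1 class up, the difference in boundaries found was 28.0, 39.2 and 50 points in the first 3 and 33.2 in the highest, and that in domains matched 8.69 in the lowest, 27.4 from 0 to 0.5, 26.0 from 0.5 to 1 and 10.04 in the highest. With single domains weighted to the PC1 classes of arrays 32.4% of their ends were found (38.3 points) and 27.2% matched (17.2 points). With PC1 centred on the median, array domains had 0.55 in HCT116 and 0.70 in DKO1, and single domains 0.22 and 0.25, so that single domains were higher in DKO1 in place of lower. Of the alternatives chosen after seeing the data, the same kind of end gave 49.3% of inner boundaries (23.9 points), and the mean of chromosomes 29.0% of single ends (39.9 points).

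The sign of the PC1 difference, DKO1 minus HCT116, turned in 4 named arrays, all with small differences. Centred on the median it was 0.12 in the array of 16 domains on chromosome 19, 0.026 in that of 10 domains on chromosome 1 and -0.00053 in that of 9 domains on chromosome 3; smoothed over 5 bins it was -0.00099 in that of 10 domains on chromosome 12. Another 7 of 135 values of named arrays moved without turning. Centred on the median, the difference was 0.69 in place of 0.25 in the array of 12 domains on chromosome 7 and -0.55 in place of -0.99 in that of 4 domains. At a tolerance of 0 kb the inner boundaries found were 61.5% in the array of 14 domains on chromosome 19, 36.4% in that of 12 domains on chromosome 3, 70% and 25% in those of chromosome 1 from 21280001 and from 209160001, and 0% in that on chromosome 13.

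No paired analysis was possible because each line has 1 pooled file, and leaving out a replicate was not possible either. The depth of the maps is unknown, so boundaries absent from the shorter DKO1 list and boundaries not detectable at its depth cannot be told apart. Gene and GC content of arrays were not analysed here.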
